A study of Danio rerio with 15 samples.

Results

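The genes described here encode 5 proteins of mitochondrial membranes or of their lipid and electron handling: slc25a25a, slc25a55a, coq10b, prelid3b and higd1a. They were chosen by name, and every probe set annotated to a single one of these symbols was taken, which gave 6 probe sets (higd1a has 2) out of 15502 probe sets covering 8793 genes. Measured values entered the choice. The genes slc25a25a, coq10b and prelid3b were chosen from their values in fluoxetine at 25 µg/L against control, and higd1a was chosen from its values in fluoxetine at 250 µg/L against control. How slc25a55a was chosen is not given in the sources used here, so its values are described with no test in any comparison. For the other 4 genes the fluoxetine values are likewise a description, and tests were made only in sertraline.

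The inner mitochondrial membrane is closed to most solutes, and carriers of the SLC25 family move nucleotides, phosphate and metabolites across it. In the same membrane coenzyme Q takes electrons from the dehydrogenases and passes them down the respiratory chain to cytochrome c oxidase, whose assembly and activity are tuned by small proteins such as those of the HIG1 family. Proteins of the PRELI family ferry phospholipids from the outer to the inner membrane, which needs them to make cardiolipin and to hold its folded shape. In zebrafish larvae these processes serve the energy supply of swimming muscle, brain and retina while the yolk is used up.

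Gene expression was measured in whole zebrafish larvae on 15 one-colour Affymetrix 3' arrays, 1 for each beaker of about 100 pooled larvae. Larvae aged 72 h after fertilisation spent 96 h without food in 200 mL of water that held fluoxetine at 25 or 250 µg/L, sertraline at 25 or 250 µg/L, or no drug (control). Both drugs are selective serotonin reuptake inhibitors, antidepressants that block the serotonin transporter. The 5 groups held 3 beakers each (n = 3); no strain, sex or allele is given, and all groups were unfed.

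Values are log2 levels as deposited by the authors, so a difference of 1 is a 2-fold difference, and levels of different probe sets cannot be set against each other as amounts of RNA. Each p-value comes from a linear model over all 15 arrays with 1 mean per group (limma), adjusted by Benjamini-Hochberg over all 15502 probe sets of a comparison, with 0.05 as the threshold. Nothing beyond the beaker marks the 3 arrays of a group as separate cultures, so p-values measure the spread between beakers. Array medians lay between 4.57 and 4.65. The arrays of fluoxetine at 25 µg/L scattered more than the others, with a mean correlation within the group of 0.986 to 0.989 across probe sets against 0.995 to 0.997 elsewhere. The model uses 1 spread for all groups. The RNA is that of whole larvae, in which fewer cells of a type and less RNA per cell cannot be told apart.

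In the larvae kept in fluoxetine at 25 µg/L, slc25a25a, coq10b, prelid3b and higd1a were 3.03 to 4.17 times lower than in control larvae, while slc25a55a was 1.69 times higher. Fluoxetine at the 10 times higher concentration left slc25a25a near the control level, coq10b and prelid3b between both levels, and higd1a still well below control. That contrast is favoured by the choice, since only higd1a of these was chosen at the higher concentration. In sertraline at 25 µg/L these 4 genes lay below control by smaller amounts than in fluoxetine at 25 µg/L. None of these sertraline differences passed the test over all probe sets. In sertraline at 250 µg/L all 4 genes overlapped control.

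**Figure D1:**
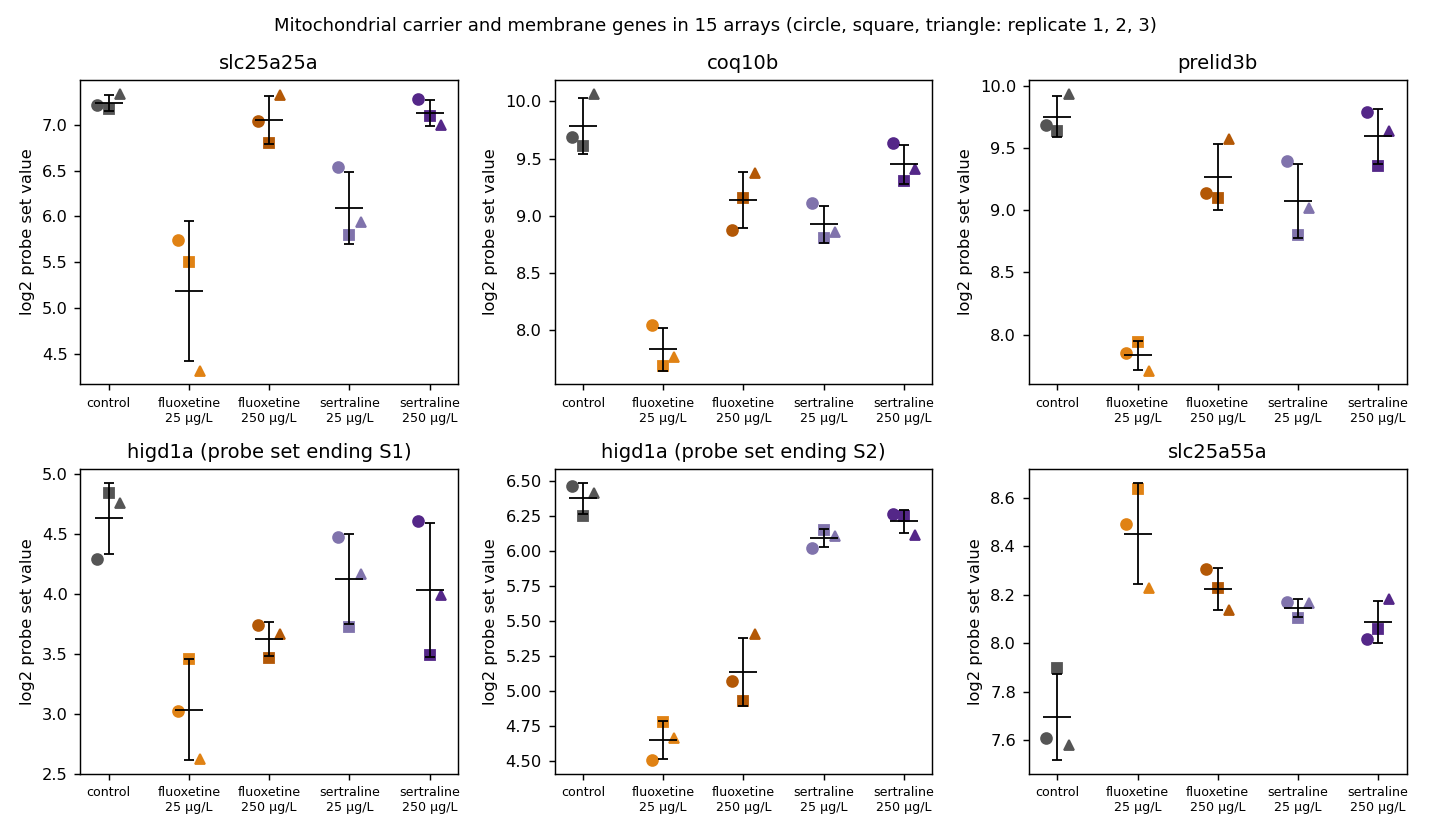
Log2 probe set value (y axis) of the 6 probe sets in each of the 15 arrays, by group (x axis), with the horizontal line at the group mean and bars of 1 SD (n = 3 beakers); each panel has its own y range, which does not start at 0. The fluoxetine 25 µg/L arrays are the lowest group in 5 panels and the highest in that of slc25a55a, where the control arrays are the lowest.

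The carriers come first. The protein of slc25a25a is known from mammals as a calcium-regulated carrier that exchanges ATP-Mg for phosphate and so sets the adenine nucleotide pool of the matrix. Its probe set read 7.22, 7.18 and 7.34 in the control arrays and 5.74, 5.50 and 4.31 in fluoxetine at 25 µg/L. In fluoxetine at 250 µg/L it read 7.04, 6.80 and 7.33. The groups at 25 µg/L and control did not overlap, and those at 250 µg/L and control did. In sertraline at 25 µg/L the values were 6.54, 5.79 and 5.93, and in sertraline at 250 µg/L they were 7.28, 7.10 and 7.01. All 3 arrays of the lower sertraline concentration lay below all control arrays, and those of the higher concentration overlapped them.

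From high to low the means of slc25a25a ran control, sertraline 250, fluoxetine 250, sertraline 25 and fluoxetine 25 µg/L. The first 3 groups overlap from one to the next, and the last 2 each stand apart from the group before them. The difference from control was -2.06 ± 0.30 (log2, SE of the model) for fluoxetine at 25 µg/L, a 4.17-fold lower level, and -0.19 ± 0.30 at 250 µg/L. Replicate 3 of fluoxetine at 25 µg/L is the lowest array of all 15, and without it the difference is -1.62. Its group has the widest spread of any for this gene, with an SD of 0.76 against 0.09 in control.

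The probe set of slc25a55a, another carrier of the SLC25 family, ran the other way. It read 7.61, 7.90 and 7.58 in control and 8.49, 8.64 and 8.23 in fluoxetine at 25 µg/L. The higher fluoxetine concentration gave 8.31, 8.23 and 8.14. Every one of these arrays lay above all 3 control arrays. Sertraline gave 8.17, 8.10 and 8.17 at 25 µg/L and 8.02, 8.06 and 8.18 at 250 µg/L, again above all control arrays. The 4 drug groups form a row of overlapping neighbours (fluoxetine 25, fluoxetine 250, sertraline 25, sertraline 250 µg/L from high to low), and control stands apart below them. The differences from control were 0.76 ± 0.11, 0.53 ± 0.11, 0.45 ± 0.11 and 0.39 ± 0.11 in that order. All 4 share the same 3 control arrays, and the share of all probe sets that lie above every control array was not counted. The paralog slc25a55b, read by 1 probe set, differed from control by 0.12 ± 0.17, 0.08 ± 0.17, 0.04 ± 0.17 and 0.29 ± 0.17 in the same order, and none passed (adjusted p = 0.671 to 0.999).

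The protein of coq10b binds coenzyme Q; in yeast its counterpart is needed for the coenzyme to work in respiration. Its probe set read 9.68, 9.61 and 10.07 in control and 8.04, 7.69 and 7.76 in fluoxetine at 25 µg/L. At 250 µg/L of fluoxetine it read 8.88, 9.16 and 9.37. The 6 fluoxetine arrays all lay below the 3 control arrays, and those of the lower concentration lay below those of the higher. Sertraline gave 9.11, 8.81 and 8.86 at 25 µg/L and 9.64, 9.30 and 9.40 at 250 µg/L. The lower sertraline concentration did not overlap control, and at the higher 2 of 3 arrays lay below all control arrays. The difference from control was -1.96 ± 0.16 in fluoxetine at 25 µg/L, a 3.88-fold lower level, and -0.65 ± 0.16 at 250 µg/L. From high to low the means ran control, sertraline 250, fluoxetine 250, sertraline 25 and fluoxetine 25 µg/L, and only the last group was clear of its neighbour in that order.

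The paralog of coq10b on the array, coq10a, is no member of the set and was tested in all 4 comparisons with control. It fell by 0.84 ± 0.13 in fluoxetine at 25 µg/L (adjusted p = 0.00323) and by 0.77 ± 0.13 at 250 µg/L (adjusted p = 0.0125). In sertraline the difference was -0.49 ± 0.13 at 25 µg/L (adjusted p = 0.541) and -0.26 ± 0.13 at 250 µg/L (adjusted p = 0.815), and neither passed.

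The gene prelid3b encodes a PRELI family protein of the space between the mitochondrial membranes. Its probe set read 9.68, 9.64 and 9.94 in control and 7.85, 7.94 and 7.71 in fluoxetine at 25 µg/L. The values in fluoxetine at 250 µg/L were 9.14, 9.10 and 9.57. All fluoxetine arrays lay below all control arrays, by at least 1.69 at the lower concentration and by at least 0.06 at the higher. Sertraline at 25 µg/L gave 9.40, 8.80 and 9.02, below all control arrays, and sertraline at 250 µg/L gave 9.79, 9.35 and 9.64, of which 1 array lay below all control arrays. The difference from control was -1.91 ± 0.17 in fluoxetine at 25 µg/L, a 3.77-fold lower level, and -0.48 ± 0.17 at 250 µg/L. The order of the groups was that of coq10b, again with fluoxetine at 25 µg/L alone clear of its neighbour. The related PRELI family gene prelid1a, with 2 probe sets, differed from control by -0.15 ± 0.14 and 0.06 ± 0.06 in fluoxetine at 25 µg/L and did not pass (adjusted p = 0.529 and 0.499). The second of these probe sets is dim, with a mean of 2.63 in control, which leaves little room for a fall.

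The gene higd1a encodes a HIG1 family protein of the inner membrane that in mammals is induced by low oxygen and binds cytochrome c oxidase. The probe set with the brighter signal read 6.46, 6.25 and 6.41 in control and 4.50, 4.77 and 4.66 in fluoxetine at 25 µg/L. At 250 µg/L of fluoxetine it read 5.07, 4.93 and 5.40. The 3 groups did not overlap, with control highest and the lower concentration lowest. Sertraline gave 6.02, 6.14 and 6.10 at 25 µg/L and 6.26, 6.25 and 6.11 at 250 µg/L. The lower concentration lay just below all control arrays, with a gap of 0.10, and the higher overlapped control. The differences from control were -1.73 ± 0.11 and -1.24 ± 0.11 in fluoxetine at 25 and 250 µg/L, a 3.31-fold and a 2.36-fold lower level.

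The other probe set of higd1a is dim. Its mean over all arrays, 3.89, is just under the level of 3.90 below which the lowest 40% of probe sets lie, and it is the only 1 of the 6 probe sets under that level. It read 4.29, 4.84 and 4.76 in control, 3.03, 3.46 and 2.62 in fluoxetine at 25 µg/L and 3.74, 3.46 and 3.67 at 250 µg/L. Both fluoxetine groups lay below control. Sertraline gave 4.48, 3.73 and 4.17 at 25 µg/L and 4.61, 3.49 and 4.0 at 250 µg/L, and both groups overlapped control. The differences from control were -1.60 ± 0.29 and -1.01 ± 0.29 in fluoxetine at 25 and 250 µg/L, in the same direction as those of the brighter probe set. Across the 15 arrays the pair of higd1a probe sets correlated at r = 0.805.

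Set against fluoxetine at 25 µg/L, the 250 µg/L larvae had higher levels of slc25a25a by 1.87 ± 0.30, of prelid3b by 1.43 ± 0.17 and of coq10b by 1.30 ± 0.16. The brighter higd1a probe set was higher by 0.49 ± 0.11 and the dim one by 0.59 ± 0.29. Among the genes that lay below control, higd1a thus regained the least of its distance to control. The choice favours this contrast, because higd1a was chosen at 250 µg/L and slc25a25a, coq10b and prelid3b at 25 µg/L. Nothing is read from it. The value of slc25a55a at 250 µg/L differed from that at 25 µg/L by -0.23 ± 0.11, with overlapping arrays. These comparisons rest on the arrays that chose the members and are given as values.

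At matched concentrations the drugs are described in the same way, because the fluoxetine arrays chose the genes. At 25 µg/L the sertraline arrays were higher than the fluoxetine arrays by 1.09 ± 0.16 for coq10b and by 1.24 ± 0.17 for prelid3b. For the brighter higd1a probe set they were higher by 1.44 ± 0.11 and for the dim one by 1.09 ± 0.29. For slc25a25a the sertraline arrays were higher by 0.90 ± 0.30, and by 0.47 without replicate 3 of fluoxetine, so that array carries much of the value. At 250 µg/L the brighter higd1a probe set was higher in sertraline by 1.08 ± 0.11 with no overlap. There the differences were 0.07 ± 0.30 for slc25a25a, 0.31 ± 0.16 for coq10b, 0.32 ± 0.17 for prelid3b and 0.41 ± 0.29 for the dim higd1a probe set, all with overlapping arrays. The 95% interval of the slc25a25a difference, -0.59 to 0.73, holds differences in both directions and is a description, not a test. The spread of all groups enters it, with an SD of 0.76 in fluoxetine at 25 µg/L. In the compared groups the SD was 0.26 for fluoxetine and 0.14 for sertraline.

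**Figure D2:**
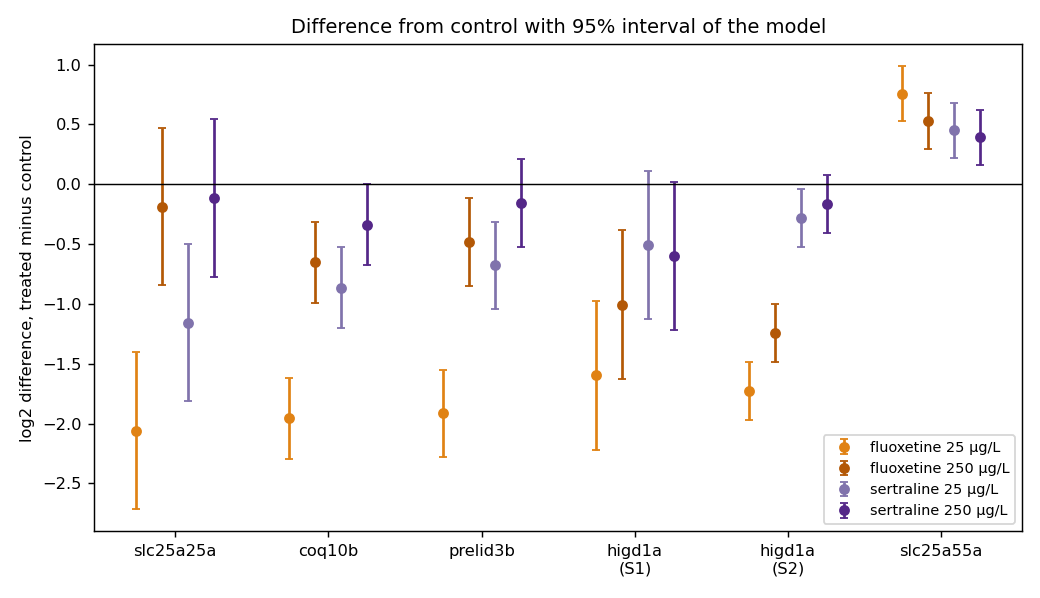
Log2 difference from control (y axis, treated minus control) of each probe set (x axis) in the 4 drug groups, with bars for the 95% interval of the model, each taken singly. The fluoxetine bars describe values that chose the genes and are no test against 0. Those of slc25a55a are no test in any group, because how it was chosen is not given. All 4 drug groups are compared with the same 3 control arrays, and slc25a55a is the only gene above 0. The gap between both fluoxetine concentrations is narrower for higd1a, chosen at the higher one, than for slc25a25a, coq10b and prelid3b, chosen at the lower.

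The sertraline comparisons are the ones in which slc25a25a, coq10b, prelid3b and higd1a (5 probe sets) could be tested, although they share the control arrays with the fluoxetine comparisons from which the genes were chosen. At 25 µg/L none of the 5 probe sets passed in limma, and 4 had an unadjusted p under 0.05. Over all 15502 probe sets 0.0581% were called lower and 0.00645% higher, with 618 at an unadjusted p under 0.05. The difference was -0.86 ± 0.16 for coq10b (95% interval -1.20 to -0.52, adjusted p = 0.12) and -0.68 ± 0.17 for prelid3b (-1.04 to -0.31, adjusted p = 0.465). For slc25a25a it was -1.16 ± 0.30 (-1.81 to -0.50, adjusted p = 0.541), a 2.23-fold lower level. For higd1a it was -0.28 ± 0.11 in the brighter probe set and -0.51 ± 0.29 in the dim one (adjusted p = 0.999 for both). The call on coq10b depends on the settings. It passed when the dimmest 40% of probe sets were left out (adjusted p = 0.0475). It also passed when arrays were weighted by how closely they followed the group means of the model (adjusted p = 0.0138). Over 6 fits that each left out 1 array its adjusted p stayed above the threshold and reached 0.494.

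In sertraline at 250 µg/L again 0 of 5 probe sets passed in limma, and 0 had an unadjusted p under 0.05; over all probe sets 0% were called lower and 0% higher, with 983 at an unadjusted p under 0.05. The differences were -0.12 ± 0.30 for slc25a25a, -0.34 ± 0.16 for coq10b, -0.16 ± 0.17 for prelid3b, and -0.17 ± 0.11 and -0.60 ± 0.29 for the brighter and the dim higd1a probe set (adjusted p = 0.787 to 0.921). The intervals do not show that sertraline left these genes unchanged: that of slc25a25a reaches from -0.77 to 0.54 and that of coq10b reaches down to -0.68. The spread of all groups enters these intervals. For slc25a25a the SD was 0.09 in control and 0.14 in sertraline at 250 µg/L. It was 0.76 in fluoxetine at 25 µg/L and 0.39 in sertraline at 25 µg/L, groups that are not compared here.

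Between the sertraline concentrations, 0 of 5 probe sets passed in limma and 3 had an unadjusted p under 0.05, where 0% of all probe sets were called lower, 0% higher, and 754 had an unadjusted p under 0.05. The level at 250 µg/L exceeded that at 25 µg/L by 1.04 ± 0.30 for slc25a25a (95% interval 0.38 to 1.70, adjusted p = 0.619), by 0.52 ± 0.16 for coq10b (adjusted p = 0.651) and by 0.52 ± 0.17 for prelid3b (adjusted p = 0.72). With array weights slc25a25a (adjusted p = 0.032) and prelid3b (adjusted p = 0.049) passed. The higd1a probe sets differed by 0.12 ± 0.11 and -0.09 ± 0.29 (adjusted p = 1.000 for both).

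Counted by overlap, all 5 probe sets of these 4 genes lay below every control array in fluoxetine at 25 µg/L, where 7.26% of all probe sets did, and 4 of 5 did so at 250 µg/L, where 7.94% did. Both contrasts chose members, so nothing is read from those counts. In sertraline at 25 µg/L 4 of 5 lay below every control array against 6.44% of all probe sets. In sertraline at 250 µg/L 0 of 5 did, against 9.77%. The same control arrays served in the choice of the genes, which favours low counts against control in sertraline too. Besides, higd1a enters with 2 probe sets, and slc25a25a, coq10b and prelid3b have like profiles (r = 0.894 to 0.977). The sertraline counts are therefore a description and no support. At 250 µg/L of sertraline 2 of 5, slc25a25a and coq10b, lay above every array of the 25 µg/L group, against 5.49% of all probe sets. The median difference of the 5 probe sets from control was -1.91, -0.65, -0.68 and -0.17 in fluoxetine 25, fluoxetine 250, sertraline 25 and sertraline 250 µg/L, beside medians over all probe sets of 0.06, -0.02, -0.03 and -0.04.

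RNA quality differed between arrays and went with some of these values but not with others. The difference between the 3' and 5' GAPDH control probe sets, which grows as RNA is degraded or shortened, was 1.55 to 1.73 in the control arrays and 1.95 to 2.17 in sertraline at 25 µg/L. In fluoxetine at 25 µg/L it was 1.53 to 2.36, highest in replicate 3, the array with the lowest slc25a25a. In fluoxetine at 250 µg/L, where higd1a was low too, it was 1.16 to 1.74. In sertraline at 250 µg/L it was 1.77 to 3.16, highest in replicate 2, which also has the lowest dim higd1a value of its group. That array was the lowest of its group for coq10b and prelid3b too, but not for slc25a25a or the brighter higd1a probe set. Replicate 3 of fluoxetine at 25 µg/L was also the lowest of its group for prelid3b and the dim higd1a probe set. For coq10b and the brighter higd1a probe set it was not. The same difference for the acta1 control probe sets was 6.86 to 7.54 in control and 7.09 to 7.71 in sertraline at 25 µg/L, so these groups overlapped. It was 8.95 in replicate 3 of fluoxetine at 25 µg/L and 9.46 in replicate 2 of sertraline at 250 µg/L, the highest of their groups. The part of RNA quality in these differences was not tested.

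The other mitochondrial genes were read through 7 pathway lists with the members left out, 134 measured genes of 273 listed. Each was read by 1 probe set, the brightest on average. The shares over all probe sets also include dim and unnamed ones, so the sets compared are unlike. In fluoxetine at 25 µg/L 10 of the 134 fell and 0 rose, where 1.66% of all probe sets were called lower and 0.864% higher. An unadjusted p under 0.05 was found for 34 of the 134 and for 2981 of all 15502 probe sets. The median difference of all 134 was -0.01, beside 0.06 over all probe sets. Among the lists the median ran from -0.10 for protein import to 0.14 for coenzyme Q synthesis and electron entry. Shifts of whole lists were not tested. In fluoxetine at 250 µg/L 2 fell and 1 rose, where 0.697% of all probe sets were called lower and 0.458% higher. There 28 of the 134 and 1653 of all 15502 probe sets had an unadjusted p under 0.05. In sertraline 0 of the 134 passed in limma at either concentration, with 10 at 25 µg/L and 9 at 250 µg/L at an unadjusted p under 0.05. Of all 15502 probe sets 618 and 983 had such a p in the same order.

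Among the SLC25 carriers 4 of 28 fell in fluoxetine at 25 µg/L and 0 rose. The pyrimidine nucleotide carrier slc25a33 fell by 1.58 ± 0.17 (adjusted p = 0.000249) and slc25a43 by 0.70 ± 0.12 (adjusted p = 0.00776). The uncoupling protein genes ucp2 and ucp3, whose proteins are relatives of the heat-producing carrier of brown fat in mammals, fell by 1.105 ± 0.21 (adjusted p = 0.0141) and 0.73 ± 0.16 (adjusted p = 0.0298). Without control replicate 3 ucp2 no longer passed (adjusted p = 0.0619), and without any 1 of the control arrays ucp3 no longer passed (adjusted p = 0.0691 to 0.112). In fluoxetine at 25 µg/L 9 of the 28 had an unadjusted p under 0.05. Of those that did not pass, slc25a3a was lower, and slc25a48, ucp1, slc25a44a and slc25a37 were higher. The uncoupling protein gene ucp1 was higher by 0.80 ± 0.34 (adjusted p = 0.238). In fluoxetine at 250 µg/L 0 of 28 fell and 1 rose: slc25a32a, whose human counterpart carries folate and flavin nucleotides, rose by 0.31 ± 0.07 (adjusted p = 0.0413), a call lost without any 1 of the 6 arrays compared (adjusted p = 0.061 to 0.15). That call was also lost with median centring (adjusted p = 0.0897), without the dimmest 40% of probe sets (adjusted p = 0.0935), with the trended prior (adjusted p = 0.169) and with the compared groups alone (adjusted p = 0.185). At that concentration 6 of the 28 had an unadjusted p under 0.05. Of these slc25a33, slc25a43 and slc25a38b were lower, and slc25a32a, slc25a4 and slc25a48 were higher. The difference was -0.74 ± 0.17 for slc25a33 (adjusted p = 0.071) and -0.45 ± 0.12 for slc25a43 (adjusted p = 0.129), and neither passed. In sertraline the carrier with the smallest p was slc25a33 at 25 µg/L (-0.80 ± 0.17, adjusted p = 0.326) and slc25a43 at 250 µg/L (-0.35 ± 0.12, adjusted p = 0.65).

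Of 15 genes of coenzyme Q synthesis and electron entry only coq10a fell in either fluoxetine comparison, and 0 rose. Its call at 250 µg/L was lost without fluoxetine replicate 1 (adjusted p = 0.0547) or control replicate 2 (adjusted p = 0.0665). In sertraline the smallest p belonged to coq10a at 25 µg/L, given above, and to etfdh, the electron transfer flavoprotein dehydrogenase gene, at 250 µg/L (0.34, adjusted p = 0.602). An unadjusted p under 0.05 was found for 3, 7, 1 and 2 of the 15 in fluoxetine 25, fluoxetine 250, sertraline 25 and sertraline 250 µg/L. In fluoxetine at 250 µg/L these were coq10a and pdss1, which were lower, and etfdh, coq3, coq2, coq8aa and etfa, which were higher. All but coq10a failed to pass there (adjusted p = 0.154 to 0.409). Of 16 genes of cardiolipin synthesis, lipid transfer and prohibitins, the list closest to prelid3b, 0 passed in limma in any of the 4 comparisons, with 3, 3, 1 and 1 at an unadjusted p under 0.05 in the order fluoxetine 25, fluoxetine 250, sertraline 25 and sertraline 250 µg/L. In fluoxetine at 25 µg/L the smallest p was that of parla, a rhomboid protease gene of the inner membrane (0.29, adjusted p = 0.128). At 250 µg/L it was that of spg7, a protease subunit gene (0.33, adjusted p = 0.204). In sertraline at 25 and 250 µg/L these were parla again (-0.21, adjusted p = 0.999) and the prohibitin gene phb (0.25, adjusted p = 0.583).

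Of 14 genes of the HIG1 family and cytochrome c oxidase assembly, the list closest to higd1a, 2 fell in fluoxetine at 25 µg/L and 0 rose. These were cycsb, a cytochrome c gene (fell by 0.37 ± 0.07, adjusted p = 0.0172), and cox17, the copper chaperone gene (fell by 0.45 ± 0.10, adjusted p = 0.034). The call on cox17 was lost without any 1 of 5 of the 6 arrays compared (adjusted p = 0.0506 to 0.138) and with quantile normalization (adjusted p = 0.0891), and that on cycsb without any 1 of 3 of them (adjusted p = 0.0701 to 0.0757) and with array weights (adjusted p = 0.0893). At 250 µg/L 0 of 14 passed in limma, 3 had an unadjusted p under 0.05, and cox17 had the smallest p (-0.44, adjusted p = 0.0655), passing with median centring of the arrays (adjusted p = 0.0394) and with array weights (adjusted p = 0.0234). In sertraline the smallest p were those of the assembly genes cox10 (-0.29, adjusted p = 0.999) at 25 µg/L and cox11 (0.21, adjusted p = 0.714) at 250 µg/L.

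Of 25 genes of protein import 2 fell in fluoxetine at 25 µg/L: tomm40, the channel of the outer membrane (fell by 0.68 ± 0.10, adjusted p = 0.00293), and tomm20a, a receptor for incoming proteins (fell by 1.07 ± 0.20, adjusted p = 0.0126). The call on tomm20a was lost without fluoxetine replicate 2 (adjusted p = 0.053) or control replicate 3 (adjusted p = 0.0558). In fluoxetine at 25 µg/L 9 of the 25 had an unadjusted p under 0.05. The list median there was -0.10, beside 0.06 over all probe sets. At 250 µg/L 0 of 25 passed in limma, 8 had an unadjusted p under 0.05, and timm50 had the smallest p (-0.48, adjusted p = 0.0606). It passed without control replicate 1 (adjusted p = 0.0409) and with array weights (adjusted p = 0.026). In sertraline the import genes with the smallest p were tomm34 (-0.30, adjusted p = 0.999) at 25 µg/L and dnajc19 (0.19, adjusted p = 0.63) at 250 µg/L.

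Of 20 genes of cristae, fusion and fission 0 passed in limma in any comparison, with 5, 0, 1 and 0 at an unadjusted p under 0.05 in the same order of groups. The smallest p were those of samm50 (-0.47, adjusted p = 0.146), vdac2 (0.20, adjusted p = 0.697), and mtfr2 in both sertraline groups (-0.14, adjusted p = 0.999 and 0.789). Of 16 regulators of mitochondrial biogenesis 1 fell in both fluoxetine groups. This was ppargc1b, a coactivator of nuclear receptors that raises transcription of mitochondrial genes, which fell by 1.31 ± 0.15 at 25 µg/L (adjusted p = 0.000339) and by 0.92 ± 0.15 at 250 µg/L (adjusted p = 0.0105). The second call was lost without fluoxetine replicate 1 (adjusted p = 0.0593). The other of its 2 probe sets gave -1.76 ± 0.28 at 25 µg/L (adjusted p = 0.00369) and -1.20 ± 0.28 at 250 µg/L, where it did not pass (adjusted p = 0.0649). In sertraline the regulators with the smallest p were tfb2m (-0.34, adjusted p = 0.969) at 25 µg/L and sirt3 (-0.24, adjusted p = 0.357) at 250 µg/L.

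**Figure D3:**
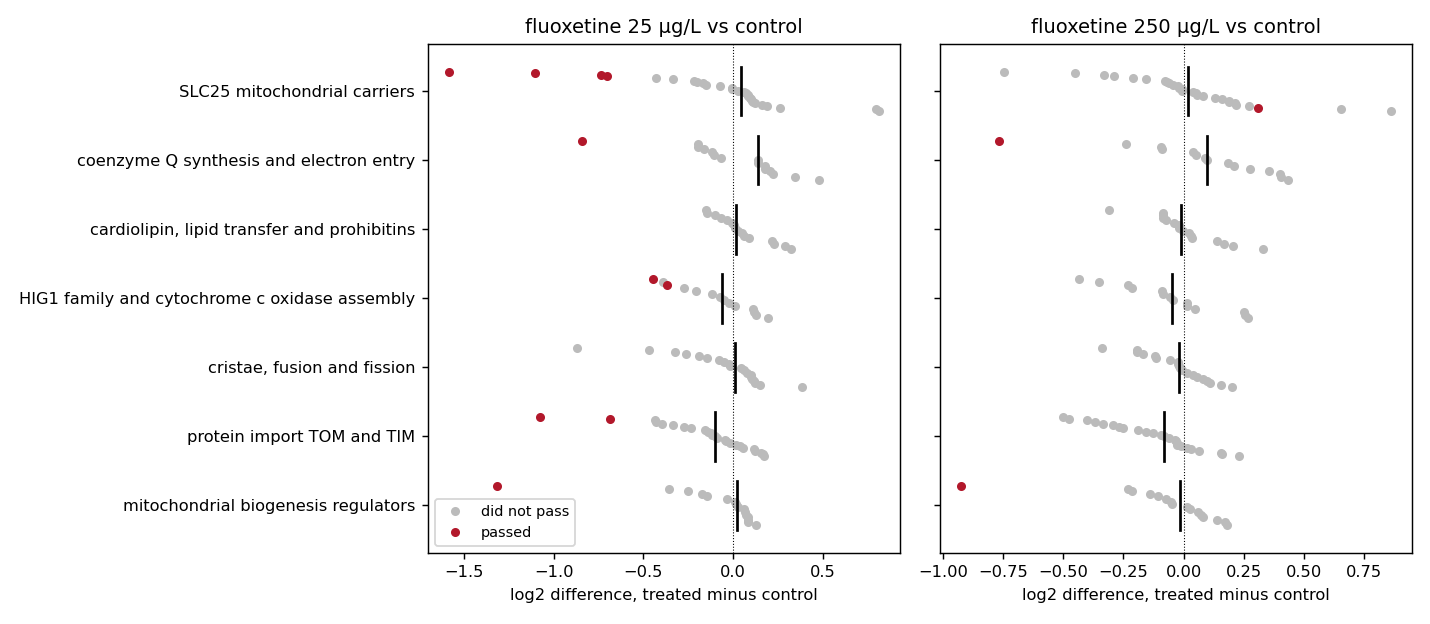
Log2 difference from control (x axis, treated minus control) of each measured gene in the 7 mitochondrial pathway lists, for fluoxetine at 25 µg/L (left) and 250 µg/L (right, with a narrower x range); red points passed at an adjusted p of 0.05, grey points did not, and the black bar is the median of the list. The medians of the lists lie between -0.10 and 0.14, and the 10 genes that fell at 25 µg/L lie to the left of them.

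The profiles of the genes over the 15 arrays were set against each other and against all other named probe sets by Pearson correlation. The arrays fall into 5 groups and all genes were read from the same RNA, so these values describe likeness and carry no test. Most alike were coq10b and prelid3b (r = 0.977), followed by slc25a25a with prelid3b (r = 0.911) and with coq10b (r = 0.894). The brighter higd1a probe set was less like slc25a25a (r = 0.591) than like prelid3b (r = 0.810). The values of slc25a55a ran opposite to those of the other probe sets, with r from -0.82 to -0.56.

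Outside the set, the gene most like both slc25a25a (r = 0.968) and prelid3b (r = 0.973) was nr4a1, an orphan nuclear receptor gene that is induced early by many stimuli. Next to slc25a25a came bzw1b (r = 0.962) and sgk1, a kinase gene induced by corticosteroids in mammals (r = 0.948). The profile of coq10b was closest to fosl2, an AP-1 transcription factor gene (r = 0.965), fkbp5, a glucocorticoid-induced cochaperone gene in mammals (r = 0.961), and nr4a1 (r = 0.952). After nr4a1, prelid3b was closest to fkbp5 (r = 0.951) and nfkbiab, an inhibitor gene of NF-kB (r = 0.950). The values of nr4a1 were 7.62, 7.49 and 7.86 in control, 5.44, 5.62 and 4.69 in fluoxetine at 25 µg/L and 7.16, 6.23 and 6.26 in sertraline at 25 µg/L. It was lowest in replicate 3 of fluoxetine, as slc25a25a was. At 250 µg/L it read 7.0, 7.21 and 7.48 in fluoxetine, all under the lowest control array, and 7.69, 7.20 and 7.52 in sertraline, overlapping control.

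The brighter higd1a probe set was closest to ppargc1b (r = 0.972), dynll1, a dynein light chain gene (r = 0.972), and ciarta, a gene of the circadian clock (r = 0.970). The dim one was closest to sptssa, a subunit gene of sphingolipid synthesis (r = 0.922), abhd2a (r = 0.908) and the clock gene per2 (r = 0.906). The value of ppargc1b was 8.83, 8.76 and 9.17 in control, 7.53, 7.60 and 7.69 in fluoxetine at 25 µg/L and 7.90, 7.73 and 8.36 at 250 µg/L. All 6 fluoxetine arrays lay below control, as for higd1a. Sertraline gave 8.77, 8.83 and 8.49 at 25 µg/L and 8.74, 8.75 and 8.85 at 250 µg/L, overlapping control. The profile of slc25a55a was closest to ccn2a (r = 0.883), lmcd1 (r = 0.868) and rgmd (r = 0.846). To the mean of the 5 standardised gene profiles, in which slc25a55a enters with its own sign, the 10 closest genes were nr4a1 (r = 0.970), nfkbiab, sat1a.2, dhrs13a.2, sgk1, slc25a33, slc20a1b, ankrd9, si:ch211-195b13.1 and ccn1 (r = 0.908).

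**Figure D4:**
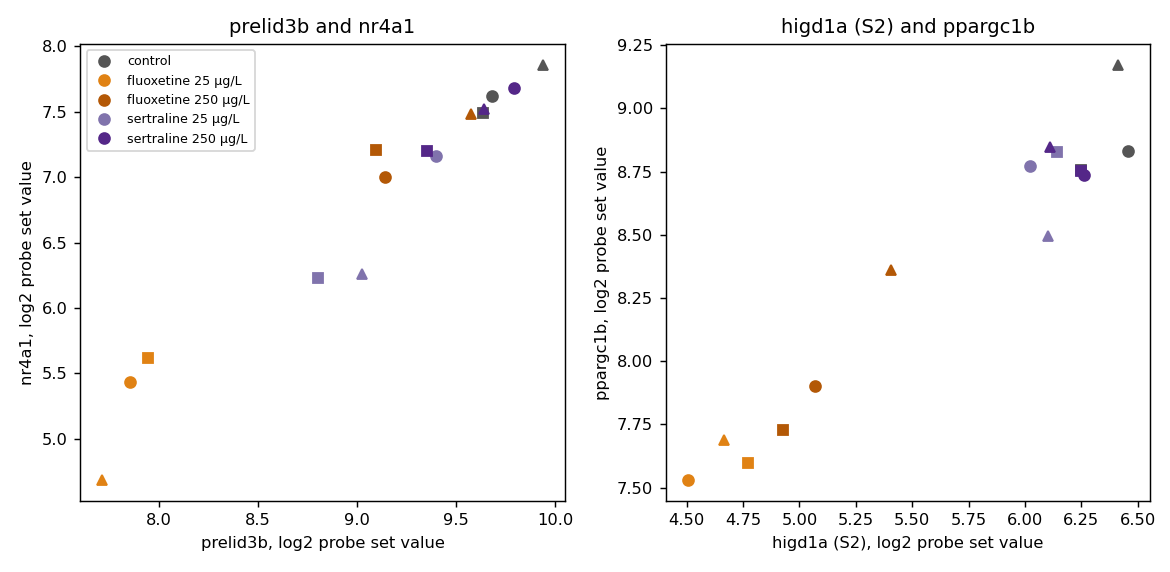
Log2 values of prelid3b (x axis) and nr4a1 (y axis) on the left, and of the brighter higd1a probe set (x axis) and ppargc1b (y axis) on the right, in the 15 arrays; colour marks the group and the shape marks the replicate (circle 1, square 2, triangle 3). In both panels the arrays of fluoxetine at 250 µg/L lie between control and fluoxetine at 25 µg/L; in the left panel they lie among the sertraline arrays, and in the right panel clear of them.

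Markers of tissues that whole larvae hold were read as the mean log2 value of each list. That 0 of the markers measured were at 0 does not show detection, because dim probe sets also read above 0 here. The lowest marker mean was 1.63 (fech) in the erythrocyte list and 2.01 (ptf1a) in the exocrine pancreas list. It was 3.66 (opn1lw1) in the photoreceptor list and 3.78 (c3a.1) in the hepatocyte list. These means lay under the level of 3.90 given above. The lowest means of the skeletal muscle (6.44, mybpc2b) and neuron (8.24, gap43) lists lay over it. The 15 skeletal muscle markers measured of 20 lay between 12.57 and 12.74 in all arrays, and 0 were called in any comparison with control. The exocrine pancreas markers (14 of 20) spanned 4.44 to 5.77 in control, 5.56 to 8.01 in fluoxetine at 25 µg/L, 5.61 to 6.81 at 250 µg/L, 5.03 to 5.87 in sertraline at 25 µg/L and 5.55 to 5.75 at 250 µg/L, and 0 of them passed in any comparison with control. The hepatocyte markers (12 of 17) spanned 6.49 to 7.23 in control, 6.06 to 8.03 in fluoxetine at 25 µg/L, 7.32 to 8.25 at 250 µg/L, 5.60 to 6.90 in sertraline at 25 µg/L and 7.12 to 7.65 at 250 µg/L. The neuron markers (9 of 14) spanned 10.59 to 10.71 in control, 10.27 to 10.71 in fluoxetine at 25 µg/L, 10.33 to 10.65 at 250 µg/L, 10.58 to 10.74 in sertraline at 25 µg/L and 10.54 to 10.60 at 250 µg/L. The erythrocyte markers (9 of 12) spanned 4.03 to 4.07 in control, 4.09 to 4.28 in fluoxetine at 25 µg/L, 4.10 to 4.28 at 250 µg/L, 4.07 to 4.18 in sertraline at 25 µg/L and 4.22 to 4.26 at 250 µg/L. In these 3 lists 0 markers were called in any comparison with control. The photoreceptor list spanned 9.44 to 9.50 in control, 9.55 to 9.88 in fluoxetine at 25 µg/L, 9.75 to 9.82 at 250 µg/L, 9.54 to 9.62 in sertraline at 25 µg/L and 9.56 to 9.63 at 250 µg/L. All 4 drug groups lay above control in the means of the erythrocyte and photoreceptor lists. Of 11 photoreceptor markers measured of 14, 2 fell and 4 rose in fluoxetine at 25 µg/L and 2 fell and 2 rose at 250 µg/L, while 0 were called in sertraline. The part of tissue content in the values of the 5 genes was not tested.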

How the data were processed

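Each of the 15 Affymetrix arrays came with 1 deposited log2 value per probe set, used unchanged. GCRMA and Partek are named in the submitters' processing notes, with no role or version. That the deposited scale is log2 was read from the values. Each array used 5 µg of total RNA per the labels. Of 15617 probe sets, 115 Affymetrix controls were left out. Genes are named from the 10795 probe sets with 1 symbol in the platform annotation; no genome build was named and no coordinate is given.

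A beaker was the replicate (n = 3). The limma model had 1 mean per group over all arrays and moderated variances, with 10 residual and 2.37 prior degrees of freedom, and was tested on simulated data. The 5 genes, the 7 pathway lists and the 6 marker lists (skeletal muscle, exocrine pancreas, hepatocyte, erythrocyte, neuron, photoreceptor) were chosen with earlier results of these data known, so they are no independent support of those results. For a list gene read by more than 1 probe set, the brightest on average was used. The text names all probe sets of the 5 genes, up to 4 passing genes per list and comparison (or the gene with the smallest p), the 3 genes most like each probe set and the 10 most like their mean. The relatives coq10a, slc25a55b and prelid1a were added for their family.

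Alternatives tried were quantile normalization, median centring, array weights, a trended and robust prior, a replicate block, leaving out the 40% dimmest probe sets or each array in turn, the compared groups alone, and the mean of a gene's probe sets. Precision is limited by the number of arrays; the 95% interval reached 0.24 to either side of a difference for the median probe set. Software was R 4.3.3 with limma 3.58.1, and matplotlib 3.10.9 under Python 3.11.15.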

Additional observations from a re-analysis of the deposited data

Results flagged for a closer look

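The protease gene parla moved apart in the drugs at 25 µg/L. All 3 fluoxetine arrays lay above all control arrays, with a difference of 0.29, and all 3 sertraline arrays lay below them, with a difference of -0.21. The protease subunit gene spg7 did the same at 250 µg/L, with 0.33 in fluoxetine and -0.11 in sertraline. Neither gene passed in any comparison with control, the comparisons share the control arrays, and the difference between the drugs was not tested. Both genes were looked at because they had the smallest p of their list, parla in both drugs at 25 µg/L and spg7 in fluoxetine at 250 µg/L. Separation from control was therefore favoured by the choice. The control arrays of spg7 lay close together, at 5.80 to 5.83. How many of all probe sets part in this way was not counted.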

How the results depend on the processing

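The 10 pathway-list genes called in fluoxetine at 25 µg/L became 3 with the compared groups alone and 6 to 17 when 1 array was left out (17 without fluoxetine replicate 3, 6 without control replicate 3). The 3 called at 250 µg/L became 6 with array weights, 1 with the compared groups alone and 0 to 3 when 1 array was left out (0 without fluoxetine replicate 1, 1 without control replicate 2). Of the 5 member probe sets in sertraline, 1 (coq10b) instead of 0 passed at 25 µg/L without the 40% lowest probe sets and with array weights, and 2 instead of 0 passed between the concentrations with array weights. With the compared groups alone ucp2, ucp3, coq10a, cycsb, cox17, tomm40 and tomm20a no longer passed in fluoxetine at 25 µg/L. Their adjusted p was 0.0899 to 0.323. In fluoxetine at 250 µg/L ppargc1b (adjusted p = 0.131) and slc25a32a (adjusted p = 0.185) no longer passed. That fit takes the spread from fewer arrays and from the compared groups only. The part of this in the lost calls was not tested. The slc25a25a difference of 0.07 between sertraline and fluoxetine at 250 µg/L ranged from -0.056 to 0.21 when 1 array was left out, and turned to -0.056 without fluoxetine replicate 2 and to -0.00364 without sertraline replicate 1. The causes of these changes were not tested.

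No pairing of arrays by replicate number was seen. Same-numbered arrays deviated together at r = -0.32 to 0.40 (30 pairs, median 0.03) and others at -0.46 to 0.40 (60 pairs, median 0.003). With 3 arrays per group these ranges cannot exclude a pairing. With the replicate block the list counts stayed 10 and 3 and the member counts 0, while the call on cox17 at 25 µg/L (adjusted p = 0.0611) and that on slc25a32a at 250 µg/L (adjusted p = 0.0628) were lost and timm50 at 250 µg/L passed (adjusted p = 0.0357). Over all probe sets, 392 calls in fluoxetine at 25 µg/L became 90 with the compared groups alone and 225 to 1034 without 1 array. The 179 at 250 µg/L became 276 with array weights, 61 with the compared groups alone and 74 to 149 without 1 array. The 10 in sertraline at 25 µg/L became 0 with the compared groups alone, 3 with the block, 4 with quantile normalization, 16 without the 40% lowest probe sets, 25 with array weights and 1 to 7 without 1 array. The 0 in sertraline at 250 µg/L became 8 without the 40% lowest probe sets, 6 with the trended prior, 28 with array weights, 2 with the compared groups alone, 2 with the block and 0 to 3 without 1 array. The 0 between the sertraline concentrations became 100 with array weights and 3 with the compared groups alone.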
